A study of Mus musculus with 26 samples.

Results

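The genes described here are 10 members of the major histocompatibility complex (MHC) class II presentation pathway: H2-Aa, H2-Ab1, H2-Eb1, Cd74, Ciita, H2-DMa, H2-DMb1, H2-DMb2, H2-Oa and H2-Ob. They were taken by gene name, from a list drawn up with earlier results of these data known, and are 10 of the 25814 genes in the deposited tables. The study measured messenger RNA in T cells sorted by flow cytometry from Peyer's patches, the lymphoid follicles of the small intestine wall, of C57Bl/6 mice, and asks what food antigen does to these cells. CD4+ T cells came from mice on an elemental diet (n = 6), in which amino acids stand in for whole protein, or on a conventional diet (n = 6). A separate sort by CD44, an adhesion receptor whose surface level goes up once a T cell has met its antigen, gave a CD44+ group (n = 7) and a CD44- group (n = 7) of T cells, both from mice fed the conventional diet. No genetic change is labelled in any group, and the age of the mice is not stated there. The labels do not say whether replicates were separate animals, so p-values measure the spread between these samples, which may be technical. Whether the sorts by CD44 also used a CD4 gate is not stated.

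Class II molecules are pairs of an alpha and a beta chain that carry peptides from taken-up protein to the cell surface, where the receptors of CD4+ T cells read them. New pairs are held by the invariant chain, Cd74, and a peptide of that chain is then exchanged for others with the help of H2-DM, a process that H2-DO restrains. Expression of these genes depends on the coactivator Ciita and is strongest in B cells, dendritic cells and macrophages, while mouse T cells are known for little or none of it. In bulk samples such as these, fewer cells of a type and less RNA per cell cannot be told apart.

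Positions are GRCm38 coordinates from the tables. In the MHC on chromosome 17, 8 of the 10 genes occupy the stretch from H2-Oa (chr17:34092340-34095234, plus strand) to H2-Eb1 (chr17:34305877-34316199, plus strand). H2-DMb2 (chr17:34143307-34151553) and H2-DMb1 (chr17:34153072-34160230) are neighbours on the plus strand, and H2-Aa (chr17:34282744-34287827) is on the minus strand. Ciita is on chromosome 16 (chr16:10480059-10528418, plus strand), and Cd74 lies on another chromosome.

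Class II promoters are known for a shared layout of an X box, bound by the RFX complex, followed by a Y box, bound by NF-Y. A simple form of this layout was searched for: GNAAC, then GATTGG starting 20 to 45 bases later, on either strand of the 250 bases before each RefSeq gene start (GRCm38.p6). It was found before H2-Aa, H2-Eb1, H2-Ob, H2-Oa and H2-DMb1, on the gene's own strand in each, and these letters were not in the window of H2-DMb2, whose RefSeq start lies 1942 bases from the start in the tables. The pair is in 410 of 32851 RefSeq promoters of this length (1.25%), and GATTGG alone is in 4783 (14.6%). The RefSeq starts of H2-DMa lie 9664 and 12350 bases from the start in the tables, so its windows were not used, and H2-Ab1, Cd74 and Ciita had no entry. The stretches below show the pair before a classical alpha chain, a classical beta chain and an H2-DO chain, 5′ to 3′ on the gene's strand from RefSeq, with the searched letters in capitals; a match is a description of the letters, not evidence of binding. They are from chr17:34287859-34287916 (minus strand), chr17:34305764-34305820 (plus strand) and chr17:34238806-34238860 (plus strand).
H2-Aa: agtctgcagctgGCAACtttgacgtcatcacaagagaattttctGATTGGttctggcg
H2-Eb1: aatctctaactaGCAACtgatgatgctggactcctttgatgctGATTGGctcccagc
H2-Ob: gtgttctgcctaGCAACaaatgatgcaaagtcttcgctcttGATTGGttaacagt

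Elemental libraries held 17331600 to 22430500 exon reads and conventional libraries 16401600 to 25415200, while CD44+ libraries held 7180390 to 9991780 and CD44- libraries 7933600 to 13378400. The CD4+ libraries were made from 22 ng of RNA with a standard kit and the CD44 libraries from 1 ng with a low-input kit, so population and kit cannot be told apart, and these sets were not tested against each other. Levels are in CPM, read counts scaled to a common TMM-adjusted library size, and group values are means ± SD. T cell core genes such as Cd3d (984 ± 97.4 CPM in elemental and 910 ± 176 CPM in conventional libraries, SD, n = 6 each) were abundant in every group. Cd44 itself had 89.2, 120 and 362 CPM (lowest, median and highest) in CD44+ libraries, against 47.5, 68.1 and 139 CPM in CD44- libraries. Those groups overlapped, and the difference was not called (log2 fold change 0.95 ± 0.40 SE, edgeR adjusted p = 0.303). Cd4 had 12.5 to 69.6 CPM in CD44+ libraries and 38.5 to 482 CPM in CD44- libraries. Introns held 3.33% to 4.08% of gene reads in elemental and 3.97% to 4.61% in conventional libraries, and 20.6% to 29.0% in CD44+ and 9.39% to 27.0% in CD44- libraries.

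On the elemental diet 1 of the 10 genes, H2-DMb1, rose, and none fell. This stands beside 17.4% of the 11938 genes tested that were called in either direction, 9.68% called higher and 7.75% called lower, so a count of 1 in 10 is near that background. Calls are at an adjusted p under 0.05 in edgeR's quasi-likelihood test with Benjamini-Hochberg adjustment over all genes tested. The median log2 fold change of the members was 0.07, against -0.01 over all genes tested. Together they took 0.265% to 0.466% of exon reads in elemental libraries and 0.217% to 0.396% in conventional libraries.

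**Figure D1:**
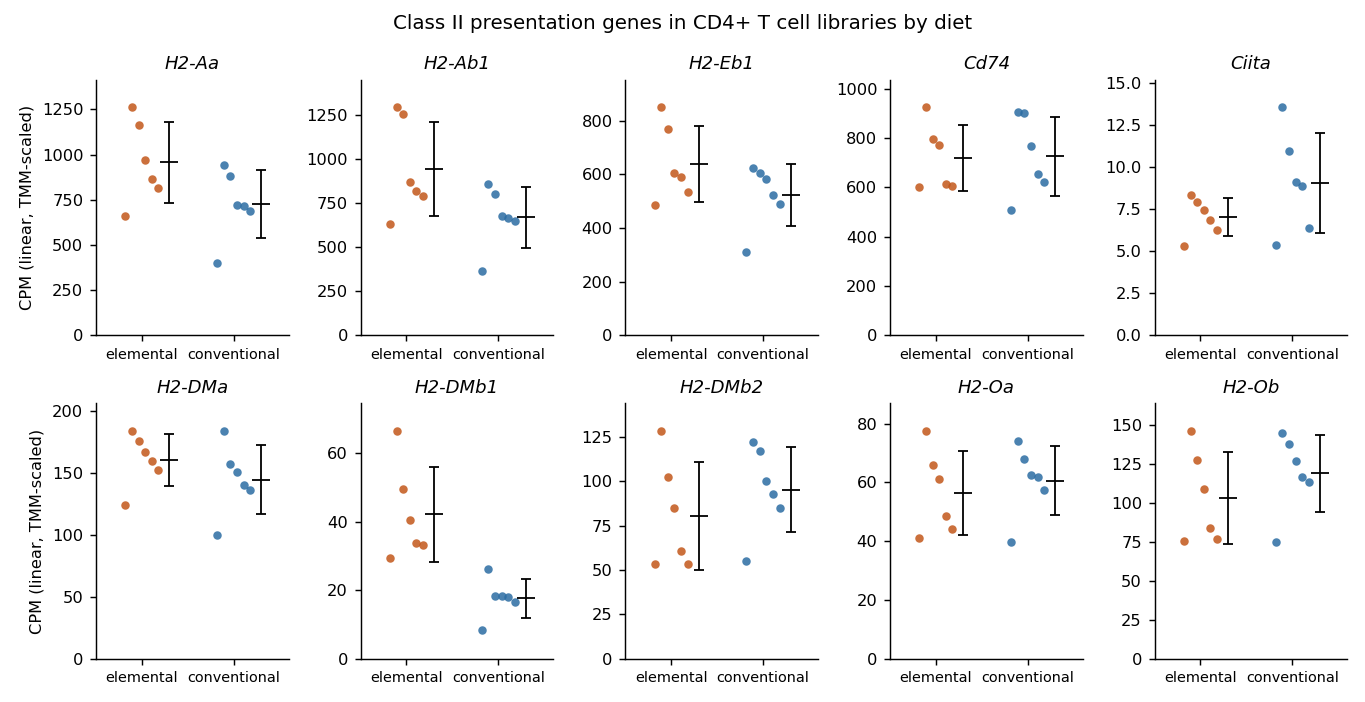
CPM (linear axis, TMM-scaled) of the 10 genes in CD4+ T cell libraries, with the elemental diet on the left and the conventional diet on the right of each panel; points are libraries (n = 6 each) and bars are mean ± SD. H2-DMb1 is the gene whose groups do not overlap, with 29.5 to 66.5 CPM on the elemental diet and 8.33 to 26.3 CPM on the conventional diet.

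The classical chains were among the most abundant members. H2-Aa, the alpha chain of the I-A molecule, had 658, 917 and 1263 CPM (lowest, median and highest) in elemental libraries, against 402, 716 and 942 CPM in conventional libraries. H2-Ab1, the I-A beta chain, had 634, 847 and 1297 CPM in elemental libraries, against 364, 673 and 860 CPM in conventional libraries. Elemental replicates 1 and 4 were the highest and conventional replicate 1 the lowest for both chains, and the groups overlapped.
The differences were 0.40 ± 0.19 (log2 fold change ± SE, edgeR adjusted p = 0.154) for H2-Aa and 0.50 ± 0.21 (adjusted p = 0.108) for H2-Ab1. Neither was called by edgeR, although DESeq2 called H2-Ab1 (adjusted p = 0.0490). H2-Eb1, the I-E beta chain, whose alpha partner gene is known to be defective in C57Bl/6 mice, had 488, 597 and 852 CPM in elemental libraries and 309, 552 and 624.8 CPM in conventional libraries, with a log2 fold change of 0.29 ± 0.17 (edgeR adjusted p = 0.227). Its groups overlapped as well, with the same libraries at the ends.

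Cd74, the invariant chain, had the smallest difference of the members. It had 600, 691 and 925 CPM in elemental libraries and 506, 711 and 904 CPM in conventional libraries, and the groups covered nearly the same range. The log2 fold change was -0.01 ± 0.15 (edgeR adjusted p = 0.954). Within libraries, Cd74 reads per H2-Ab1 read were 0.633 to 0.971 (median 0.729) on the elemental diet and 0.761 to 1.39 (median 1.14) on the conventional diet. The difference of the log2 ratios was -0.50 (exact permutation test over libraries, two-sided, p = 0.0152, adjusted p = 0.0455 over 6 ratio tests). It remained called in 3 of 12 fits that left out 1 library, with adjusted p from 0.0325 to 0.0736; leaving out conventional replicate 1, 2, 3, 4 or 5 or elemental replicate 1, 4, 5 or 6 ended the call, and so did counting total gene reads (adjusted p = 0.0519).

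Ciita, the coactivator that class II genes require, was the least abundant member. It had 5.28, 7.12 and 8.34 CPM in elemental libraries, against 5.37, 9.0 and 13.6 CPM in conventional libraries. The log2 fold change was -0.37 ± 0.22 (edgeR adjusted p = 0.238), and the elemental libraries all lay within or below the conventional range. Summed over libraries, 12.4% of its exon reads in the elemental and 15.1% in the conventional group matched a single place, and it overlaps Dexi on the other strand, with the use of strand in counting not stated, so its level is uncertain. Only 0.269% of the 50-base stretches of the Ciita transcript also occur in Dexi, and none in another gene. Why most Ciita reads lacked a single place was not tested.

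H2-DMb1 encodes a beta chain of the peptide exchange factor H2-DM. It had 29.5, 37.1 and 66.5 CPM in elemental libraries, against 8.33, 18.2 and 26.3 CPM in conventional libraries. All 6 elemental libraries lay above all 6 conventional libraries, a separation seen in 7.16% of the genes tested (4.82% with the elemental libraries higher and 2.35% with them lower). H2-DMb1 averaged 42.2 ± 13.9 CPM on the elemental diet and 17.7 ± 5.71 CPM on the conventional diet (log2 fold change 1.26 ± 0.25, edgeR adjusted p = 0.00426). The call held in each of the 12 fits that left out 1 library (1.08 to 1.40, adjusted p at most 0.0120). It was lost where all 4 groups of the study shared 1 estimate of the spread (1.26 ± 0.61, edgeR adjusted p = 0.950), a fit that called 2 genes in all.

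Its neighbour and near copy H2-DMb2, the other beta chain gene of H2-DM, had 53.2, 73.0 and 129 CPM in elemental libraries and 55.3, 96.4 and 122 CPM in conventional libraries. Those groups overlapped over almost their whole range, with a log2 fold change of -0.24 ± 0.24 (edgeR adjusted p = 0.50). The alpha chain H2-DMa, partner of both, had 124, 164 and 184 CPM in elemental libraries and 100, 146 and 184 CPM in conventional libraries (log2 fold change 0.15 ± 0.13, edgeR adjusted p = 0.415). The beta chain genes share sequence: 27.2% of the 50-base stretches of the H2-DMb1 transcript also occur in H2-DMb2, and 74.1% of H2-DMb1 reads in elemental and 72.2% in conventional libraries matched a single place.

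As a share of the reads of both beta chain genes, a measure chosen after the values were seen and therefore given without a test, H2-DMb1 took 20.8% to 52.2% (median 34.1%) in elemental libraries. In conventional libraries it took 13.1% to 17.7% (median 15.8%). With reads that matched a single place alone, the shares were 20.4% to 52.1% in elemental and 12.8% to 17.6% in conventional libraries, so the groups stayed apart without the shared reads. H2-DMb1 was the more abundant of the pair in 1 library, elemental replicate 1.

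**Figure D2:**
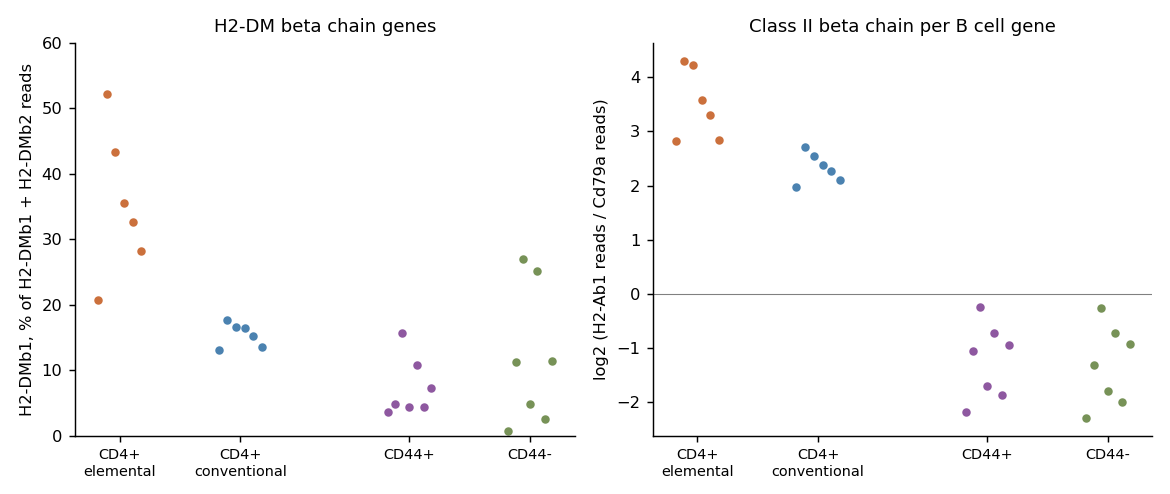
Left, H2-DMb1 as a percentage of H2-DMb1 plus H2-DMb2 exon reads; right, log2 ratio of H2-Ab1 to Cd79a reads; each point is a library and each colour a group (CD4+ elemental and conventional, n = 6 each; CD44+ and CD44-, n = 7 each). In both panels the elemental libraries lie above the conventional ones, while CD44+ and CD44- overlap; the 2 pairs of groups were made with different kits.

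The chains of H2-DO, which holds H2-DM back and is best known from B cells, were not called. H2-Oa, the alpha chain, had 41.0, 54.9 and 77.6 CPM in elemental libraries and 39.7, 62.2 and 74.0 CPM in conventional libraries (log2 fold change -0.10 ± 0.17, edgeR adjusted p = 0.688). H2-Ob, the beta chain, had 75.8, 96.4 and 146 CPM in elemental libraries and 75.1, 122 and 144 CPM in conventional libraries (-0.21 ± 0.18, edgeR adjusted p = 0.447). In both genes the groups overlapped over nearly their full range. H2-Ob reads per H2-DMa read were 0.417 to 0.874 (median 0.677) on the elemental diet and 0.750 to 0.903 (median 0.819) on the conventional diet. The log2 ratios differed by -0.39 (exact permutation test, two-sided, p = 0.0281), which missed the threshold after adjustment over 6 ratio tests (adjusted p = 0.0563). Without elemental replicate 6, the library with the highest H2-Ob, the difference was -0.48 and passed (adjusted p = 0.00649).

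Levels of different genes were set side by side per length of exon, which takes out gene length but no other difference in coverage between genes. On this scale the order on the elemental diet began with H2-Aa (844 ± 199 RPKM), H2-Ab1 (781 ± 222 RPKM), H2-Eb1 (540 ± 119 RPKM) and Cd74 (509 ± 94.7 RPKM). H2-DMa followed at 103 ± 13.5 RPKM, then H2-DMb2 at 54.2 ± 20.6, H2-Oa at 51.8 ± 13.1, H2-Ob at 35.3 ± 10.01, H2-DMb1 at 30.0 ± 9.88 and Ciita at 0.849 ± 0.136 RPKM. On the conventional diet H2-Aa (640 ± 166 RPKM), H2-Ab1 (553 ± 142 RPKM), Cd74 (515 ± 114 RPKM) and H2-Eb1 (441 ± 98.1 RPKM) followed in this order, each differing from the next by less than the SD. H2-DMb1 was second to last there too, at 12.6 ± 4.07 RPKM. The steps from the classical chains and Cd74 down to H2-DMa exceeded the SD in both groups. So did those from the other H2-DM and H2-DO chains down to Ciita. The steps from H2-DMa to H2-DMb2 and from H2-Oa to H2-Ob also exceeded the SD in both groups. The step from H2-Ab1 to H2-Eb1 did so on the elemental diet, and that from H2-Ob to H2-DMb1 on the conventional diet. H2-Aa and H2-Ab1, and H2-DMb2 and H2-Oa, differed by less than the SD in both groups. These SDs are spreads between libraries, so they do not compare genes within a library. Within libraries, H2-Aa reads per H2-Ab1 read were 1.06 to 1.10 on the conventional and 0.897 to 1.11 on the elemental diet. That ratio was chosen after the values were seen and was not tested.

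The members were then set beside markers of cells that carry class II. All 12 macrophage markers rose on the elemental diet, among them the complement genes C1qa (log2 fold change 2.17 ± 0.31, edgeR adjusted p = 0.00104) and C1qc (2.05 ± 0.30, adjusted p = 0.00116). Their summed level was 384 to 1139 CPM in elemental and 129 to 237 CPM in conventional libraries, and none of them was at 0 throughout a group. Of 9 conventional dendritic cell markers 5 rose, with sums of 37.1 to 103 CPM in elemental and 42.1 to 112 CPM in conventional libraries. Itgax (0.98 ± 0.25, edgeR adjusted p = 0.0151) and Clec10a (1.33 ± 0.32, adjusted p = 0.0112) were among those that rose. The most abundant gene of that list and a large part of its sums, Itgae, was not called (29.3 ± 11.3 CPM in elemental and 43.1 ± 24.2 CPM in conventional libraries). Of 7 plasmacytoid dendritic cell markers 4 rose, with sums of 304 to 554 CPM in elemental and 204 to 291 CPM in conventional libraries. Of 12 epithelial markers 4 rose, with sums of 875 to 2053 CPM in elemental and 79.1 to 1195 CPM in conventional libraries.

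B-lineage markers went the other way. Of 14 B cell markers 3 fell and none rose, among them Ms4a1, which encodes CD20 (log2 fold change -1.0 ± 0.27, edgeR adjusted p = 0.0258), with sums of 290 to 595 CPM in elemental and 440 to 827 CPM in conventional libraries. The 2 more abundant B cell markers, Cd79a (-0.63 ± 0.25, edgeR adjusted p = 0.0991) and Cd79b (-0.43 ± 0.22, adjusted p = 0.182), were not called. Of 7 germinal centre B cell markers 6 fell, among them S1pr2, a receptor that keeps cells in the follicle centre, with 28.1 ± 1.76 CPM in elemental and 61.7 ± 10.9 CPM in conventional libraries (log2 fold change -1.14 ± 0.11, edgeR adjusted p = 3.76e-05). Of 7 plasma cell markers 3 fell, among them Jchain, the joining chain of secreted antibody (-1.41 ± 0.32, edgeR adjusted p = 0.0127). Xbp1 of that list was nearly level (-0.01 ± 0.09, edgeR adjusted p = 0.937). Of 9 tested markers of innate lymphoid cells (ILC3), some of which also carry class II, 4 rose and 1 fell, with sums of 1089 to 1252 CPM in elemental and 941 to 1146 CPM in conventional libraries. Most of those sums was 1 gene, Ltb, with 905 ± 75.9 CPM in elemental and 709 ± 102 CPM in conventional libraries. The marker that fell was Cxcr5 (-1.05 ± 0.17, edgeR adjusted p = 0.00139). T cells also express Cxcr5 and Ltb, so in sorted T cells the changes of these genes cannot be assigned to ILC3. Of 13 T cell core genes 4 fell and none rose, with a median log2 fold change of -0.14 and sums of 4847 to 5467 CPM in elemental and 5028 to 5859 CPM in conventional libraries. The part of any of these cells in the class II levels was not tested.

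Elemental replicate 1 had both the highest H2-DMb1 level (66.5 CPM) and the highest macrophage marker sum (1139 CPM) of the 12 libraries. Conventional replicate 1 had the lowest of both, 8.33 and 129 CPM. That library was also the lowest of the 12 for H2-Aa, H2-Ab1, H2-Eb1, Cd74, H2-DMa, H2-Oa and H2-Ob, so its low level was not particular to H2-DMb1. H2-Ob was lowest, at 75.1 to 84.0 CPM, in elemental replicates 1, 2 and 5 and conventional replicate 1, which were also the 4 libraries with the lowest B cell marker sums (290 to 440 CPM).
Counted per read of Cd79a, a chain of the B cell receptor complex, H2-Ab1 had 7.10 to 19.8 reads (median 10.9) in elemental libraries and 3.94 to 6.56 reads (median 5.01) in conventional libraries. The groups did not overlap, and the log2 ratio was 1.18 higher on the elemental diet (exact permutation test, two-sided, p = 0.00216, the smallest this design can give, adjusted p = 0.0130). It stayed called in all 12 fits that left out 1 library. Neither H2-Ab1 nor Cd79a was called on its own in the main edgeR fit. Counted per read of C1qa, H2-Ab1 had 3.44 to 7.04 reads in elemental libraries and 12.04 to 19.6 reads in conventional libraries, again without overlap; this ratio was chosen after the values were seen and was not tested.

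**Figure D3:**
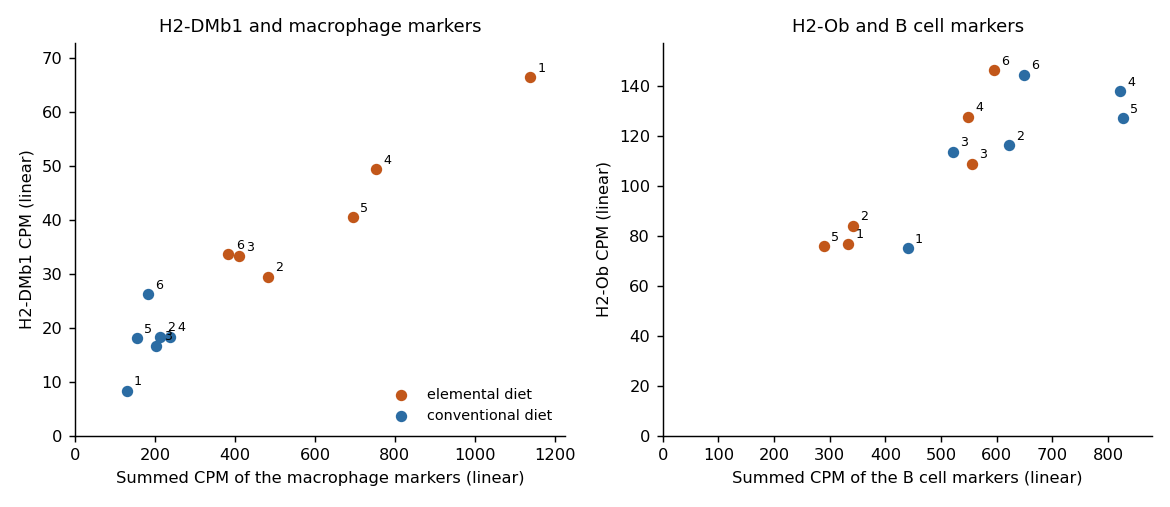
Left, H2-DMb1 CPM against the summed CPM of 12 macrophage markers; right, H2-Ob CPM against the summed CPM of 14 B cell markers; points are the 12 CD4+ libraries, numbered by replicate and coloured by diet, on linear axes. Elemental replicate 1 is highest on both axes of the left panel (1139 and 66.5 CPM), and conventional replicate 1 is lowest on both.

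Other genes of the pathway were read from the same fit. Of 10 genes for the control of class II transcription, 2 fell and none rose: Nfya, a subunit of the Y box factor NF-Y (log2 fold change -0.73 ± 0.19, edgeR adjusted p = 0.0158), and Ezh2, a histone methyltransferase (-0.75 ± 0.24, adjusted p = 0.0427). Of 10 genes for invariant chain processing and class II turnover 6 rose and none fell, with a median log2 fold change of 0.48. Among them Ctss, the protease cathepsin S that trims the invariant chain, had 556 ± 69.7 CPM in elemental and 356 ± 38.1 CPM in conventional libraries (0.64 ± 0.10, edgeR adjusted p = 0.000556), without overlap. Ctsb (-0.07 ± 0.09) and Ctsd (0.14 ± 0.08), 2 other lysosomal proteases, were not called.

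Of 8 genes for the response to interferon-gamma, the main inducer of Ciita outside professional presenting cells, 3 rose and 2 fell. The receptor chain Ifngr1 rose (log2 fold change 0.44 ± 0.11, edgeR adjusted p = 0.0142), while the receptor kinase Jak1 missed the threshold (-0.91 ± 0.32, adjusted p = 0.0690). In class I presentation, which serves CD8+ T cells, 1 of 15 genes rose, the proteasome subunit Psmb10 (0.63 ± 0.12, edgeR adjusted p = 0.00348). There 1 fell, Nlrc5, the class I counterpart of Ciita (-0.71 ± 0.22, adjusted p = 0.0374). None of 7 co-stimulation genes was called, nor was H2-Eb2, a further class II beta chain gene (-0.29 ± 0.21, adjusted p = 0.344). The T cell receptors for class II both fell: Cd4 had 239 ± 45.9 CPM in elemental and 353 ± 78.6 CPM in conventional libraries (-0.56 ± 0.16, edgeR adjusted p = 0.0250), and Lag3 had 68.1 ± 16.6 CPM in elemental and 134 ± 11.4 CPM in conventional libraries (-0.98 ± 0.13, adjusted p = 0.000270).

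Between CD44+ and CD44- T cells, 1 of the 10 members rose, H2-Aa, and none fell. Of the 8343 genes tested, 0.767% were called in either direction, 0.3% were called higher and 0.467% lower. The members' log2 fold changes ran from 0.81 to 1.97, with a median of 1.40 against 0.03 over all genes tested. All of them that were tested kept a positive sign in each alternative run. The members took 0.587% to 2.05% of exon reads in CD44+ libraries and 0.316% to 0.942% in CD44- libraries.

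**Figure D4:**
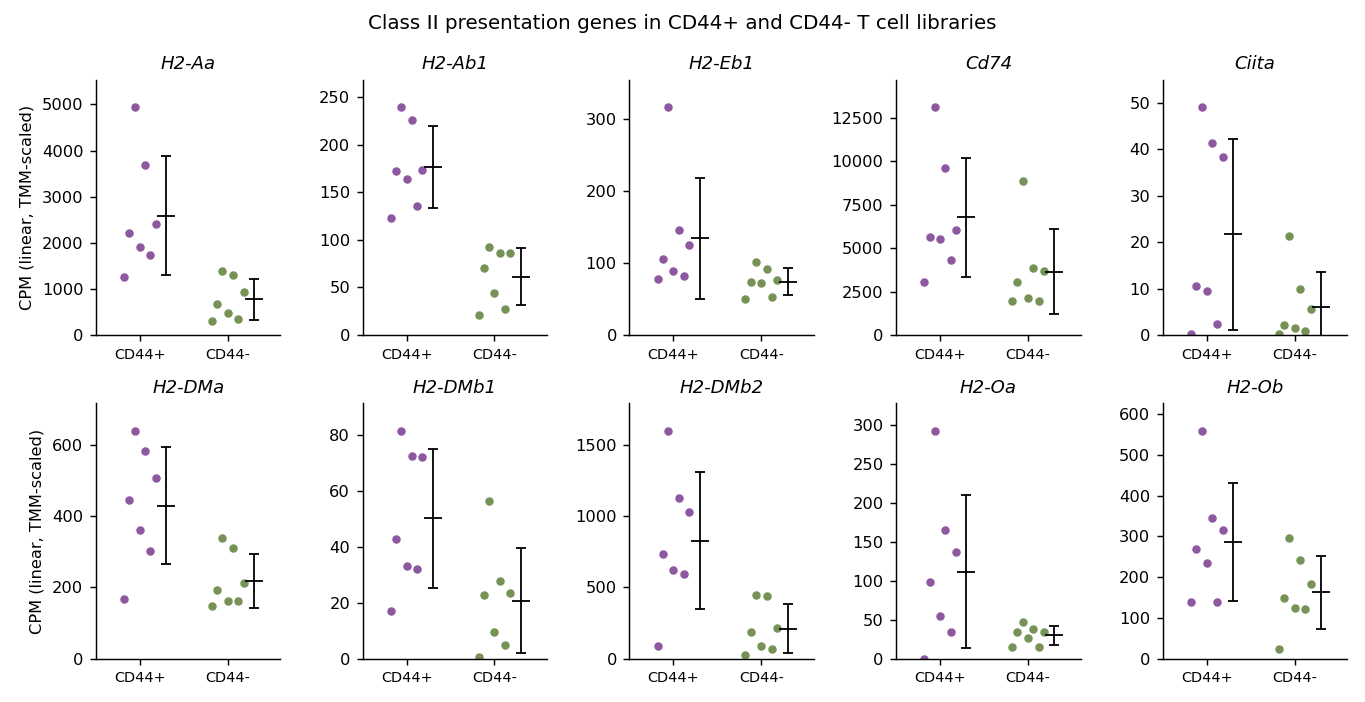
CPM (linear axis, TMM-scaled) of the 10 genes in CD44+ libraries (left of each panel) and CD44- libraries (right); points are libraries (n = 7 each) and bars are mean ± SD, ending at 0 where the SD exceeds the mean. H2-Ab1 is the gene whose groups do not overlap, with 123 to 239 CPM in CD44+ and 21.4 to 92.6 CPM in CD44- libraries.

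H2-Aa had 1254, 2203 and 4941 CPM (lowest, median and highest) in CD44+ libraries, against 310, 670 and 1397 CPM in CD44- libraries. Of the CD44+ libraries 6 of 7 lay above the highest CD44- library, and replicate 1 fell inside the CD44- range. H2-Aa averaged 2591 ± 1283 CPM in CD44+ and 776 ± 442 CPM in CD44- libraries (log2 fold change 1.74 ± 0.37, edgeR adjusted p = 0.0321). The call was lost without CD44+ replicate 4 (adjusted p = 0.0511), 5 (0.0692) or 6 (0.0761), or without CD44- replicate 1 (0.0750) or 4 (0.0632), with the log2 fold change still between 1.51 and 1.76.

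Its partner H2-Ab1 was not called, although its groups did not overlap, a separation seen in 0.755% of the genes tested (0.396% with CD44+ higher and 0.36% with CD44+ lower). It had 123, 172 and 239 CPM in CD44+ libraries, against 21.4, 70.7 and 92.6 CPM in CD44- libraries, so every CD44+ library lay above every CD44- library. The log2 fold change was 1.52 ± 0.40 (edgeR adjusted p = 0.0840), and DESeq2 (adjusted p = 0.0141), limma-voom (0.0408) and the edgeR fit on total gene reads (0.0220) called it. H2-Eb1 had 77.8, 106 and 316 CPM in CD44+ libraries and 49.7, 73.4 and 102 CPM in CD44- libraries, with overlap (0.86 ± 0.40, edgeR adjusted p = 0.359). Without CD44+ replicate 8, its highest library, the log2 fold change was 0.50 ± 0.38 (edgeR adjusted p = 0.654). Introns held 33.8% of H2-Eb1 gene reads in CD44+ and 17.2% in CD44- libraries, and at most 4.59% of those of H2-Aa and H2-Ab1.

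Cd74 was the most abundant member here, with 3080, 5632 and 13112 CPM in CD44+ libraries and 1950, 3081 and 8855 CPM in CD44- libraries. The groups overlapped, since CD44- replicate 5 exceeded 5 of the 7 CD44+ libraries, and the log2 fold change was 0.89 ± 0.36 (edgeR adjusted p = 0.273). Cd74 reads per H2-Ab1 read were 23.1 to 58.0 (median 36.7) in CD44+ and 22.7 to 102 (median 78.7) in CD44- libraries. The log2 ratios differed by -0.73 (exact permutation test, two-sided, p = 0.0717, adjusted p = 0.108), and by -0.96 without CD44- replicate 8 (adjusted p = 0.0315). Ciita ranged from 0.144 to 49.0 CPM (median 10.6) in CD44+ and from 0.259 to 21.3 CPM (median 2.28) in CD44- libraries, with as few as 1 and 2 reads in a library, and its log2 fold change was 1.86 ± 1.04 (edgeR adjusted p = 0.471). Summed over libraries, 5.09% of these reads in CD44+ and 2.76% in CD44- matched a single place, with shares by library from 0% to 65%, so the Ciita level is uncertain here as well.

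The H2-DM genes pointed the same way without being called. H2-DMa had 169, 445 and 639 CPM in CD44+ and 149, 194 and 338 CPM in CD44- libraries (log2 fold change 0.97 ± 0.32, edgeR adjusted p = 0.163). H2-DMb2 had 92.7, 735 and 1598 CPM in CD44+ and 26.1, 188 and 446 CPM in CD44- libraries (1.97 ± 0.57, edgeR adjusted p = 0.113; DESeq2 adjusted p = 0.0424). H2-DMb1 had 17.2, 42.8 and 81.6 CPM in CD44+ and 0.668, 22.8 and 56.4 CPM in CD44- libraries (1.27 ± 0.73, edgeR adjusted p = 0.481). CD44+ replicate 1 was the lowest CD44+ library for all 3 genes, and each pair of groups overlapped. H2-DMb1 took 3.66% to 15.6% of the beta chain reads in CD44+ libraries and 0.739% to 27.0% in CD44- libraries.

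The H2-DO chains varied widely. H2-Oa had 0.233, 98.9 and 293 CPM in CD44+ libraries and 15.3, 34.3 and 47.5 CPM in CD44- libraries (log2 fold change 1.89 ± 0.77, edgeR adjusted p = 0.281), with 2 reads in CD44+ replicate 7. Its log2 fold change was 0.41 (adjusted p = 0.913) with limma-voom, and 2.06 (edgeR adjusted p = 0.0202) where all 4 groups shared the spread. Of the 50-base stretches of the H2-Oa transcript, 17.2% also occur in another gene, BC051537. In each group 100% of the H2-Oa exon reads matched a single place. Whether BC051537 adds to the H2-Oa count was not tested. H2-Ob had 138, 269 and 559 CPM in CD44+ libraries and 22.9, 150 and 296 CPM in CD44- libraries (0.81 ± 0.44, edgeR adjusted p = 0.442). The groups overlapped in both genes. The log2 ratio of H2-Ob to H2-DMa differed by 0.04 (exact permutation test, two-sided, adjusted p = 0.964) and turned to -0.30 without CD44- replicate 1, the library with the lowest H2-Ob.

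**Figure D5:**
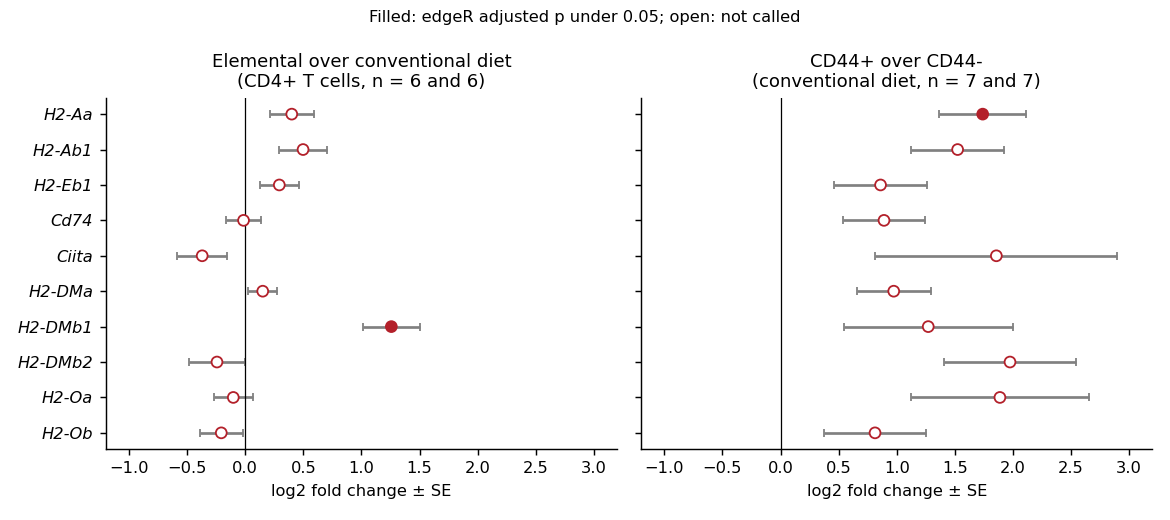
Log2 fold change ± SE of each gene for elemental over conventional diet (left, n = 6 each) and CD44+ over CD44- T cells (right, n = 7 each), from separate edgeR fits; filled points have an adjusted p under 0.05. The diet values lie on both sides of 0 with H2-DMb1 apart at 1.26, and the CD44 values are all positive, with H2-Aa called at 1.74.

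Per length of exon, the order in CD44+ libraries was Cd74 (4798 ± 2444 RPKM), H2-Aa (2289 ± 1134), H2-DMb2 (557 ± 321), H2-DMa (276 ± 106), H2-Ab1 (146 ± 35.5), H2-Eb1 (114 ± 70.8), H2-Oa (103 ± 90.3), H2-Ob (97.7 ± 49.4), H2-DMb1 (35.8 ± 17.8) and Ciita (2.62 ± 2.48 RPKM). In CD44- libraries Cd74 (2589 ± 1724 RPKM) and H2-Aa (685 ± 390 RPKM) also came first and Ciita (0.721 ± 0.912 RPKM) last. H2-Aa reads per H2-Ab1 read, a ratio chosen after the values were seen, were 9.20 to 21.9 in CD44+ and 7.74 to 17.8 in CD44- libraries. They were 0.897 to 1.11 in elemental and 1.06 to 1.10 in conventional CD4+ libraries. Population and kit cannot be told apart, so the order in CD44 libraries may be particular to these libraries. In CD44+ libraries the gap from H2-DMb2 to H2-DMa, and the gaps between H2-Ab1, H2-Eb1, H2-Oa and H2-Ob, were smaller than the SD. That SD is a spread between libraries, so it does not compare the genes within each library. Within libraries, H2-DMb2 was above H2-DMa per length of exon in CD44+ replicates 2, 4, 5, 6, 7 and 8. It was below H2-DMa in replicate 1, and this order was not tested.

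Markers of class II bearing cells were read from the same fit, and their part in these values was not tested, nor was that of the intron share (20.6% to 29.0% of gene reads in CD44+ and 9.39% to 27.0% in CD44- libraries). Of 12 tested B cell markers none was called, with a median log2 fold change of 1.10 and sums of 680 to 2558 CPM in CD44+ and 320 to 1599 CPM in CD44- libraries. Of 5 plasma cell markers 2 rose, Jchain (log2 fold change 2.32 ± 0.46, edgeR adjusted p = 0.0193) and Mzb1 (2.58 ± 0.48, adjusted p = 0.0122), with list sums of 3841 to 8087 CPM in CD44+ and 399 to 3136 CPM in CD44- libraries. Of 6 plasmacytoid dendritic cell markers 1 rose, Ly6d (2.50 ± 0.49, edgeR adjusted p = 0.0160), with sums of 718 to 1629 CPM in CD44+ and 117 to 397 CPM in CD44- libraries. Ly6d made up most of those sums, with a median of 1005 of 1184 CPM in CD44+ and 244 of 310 CPM in CD44- libraries. The next most abundant markers, Bst2 (0.34 ± 0.61, edgeR adjusted p = 0.865) and Irf8 (0.57 ± 0.65, adjusted p = 0.783), overlapped between the groups and were not called.
Macrophage markers were not called (0 of 12), with sums of 205 to 883 CPM in CD44+ and 83.7 to 933 CPM in CD44- libraries, nor were the 4 tested conventional dendritic cell markers. None of 6 germinal centre B cell markers was called, with a median log2 fold change of 1.70 and sums of 162 to 386 CPM in CD44+ and 50.01 to 267 CPM in CD44- libraries. Of 5 ILC3 markers 1 rose, Tnfsf11, the cytokine RANKL (4.39 ± 0.99, edgeR adjusted p = 0.0399), with sums of 104 to 305 CPM in CD44+ and 25.2 to 279.5 CPM in CD44- libraries. T cells can also express Tnfsf11, so its call cannot be assigned to ILC3. The plasma cell marker Tnfrsf17 and the dendritic cell markers Clec9a and Klk1 were at 0 in every CD44- library. So were the epithelial marker Cldn7 and the ILC3 marker Il22, while the ILC3 marker Ncr1 was at 0 in every CD44+ library. The sum of 13 T cell core genes was 12016 to 15343 CPM in CD44+ and 10179 to 16390 CPM in CD44- libraries. H2-Ab1 reads per Cd79a read were 0.218 to 0.843 (median 0.477) in CD44+ libraries and 0.203 to 0.833 (median 0.401) in CD44- libraries. Those ranges nearly coincide, and the log2 ratios differed by 0.08 (exact permutation test, two-sided, adjusted p = 0.964). Of the other pathway lists, none of 8 control genes, 10 processing genes, 7 interferon-gamma genes, 15 class I genes or 5 co-stimulation genes was called. Ctss had 723 ± 94.0 CPM in CD44+ and 685 ± 124 CPM in CD44- libraries (0.08 ± 0.20, edgeR adjusted p = 0.910).

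Likeness in pattern was measured as Pearson's r between a gene and the mean log2 CPM of H2-Aa, H2-Ab1, H2-Eb1 and Cd74, over libraries that share their kit and differ in depth, and is given as a description. Over the 12 CD4+ libraries the nearest of 10136 other genes were Cryzl1 (r = 0.905), Defa3 (0.890), an alpha-defensin of Paneth cells, Cyp4f18 (0.887), Pafah2 (0.876) and Blvrb (0.872). Members outside those 4 genes ranged from 0.898 for H2-DMa and 0.824 for H2-DMb1 down to 0.409 for H2-DMb2, 0.405 for H2-Oa, 0.361 for H2-Ob and -0.03 for Ciita. The H2-DO chains and H2-DMb2 thus had a lower r there than H2-DMa and H2-DMb1, a difference that was not tested. Over the 14 CD44 libraries the nearest of 7835 genes were Ppia (0.935), Ssr4 (0.926), Atp5g1 (0.917) and the B cell genes Cd79a (0.910) and Vpreb3 (0.902). There H2-DMa (0.884) and H2-DMb2 (0.809) came closest among the other members, and H2-Oa (0.265) was farthest.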

How the data were processed

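For each library the authors deposited whole-number read counts per gene, given per the file headers for exons, introns and whole genes, and for exon reads with a unique match. Per the submitters' processing notes the genome build was GRCm38, while the aligner and the counter were not given in the sources used here. Tests used total exon reads. Each pair of groups was fitted alone (CD4+ elemental against conventional, 6 and 6 libraries; CD44+ against CD44-, 7 and 7) with edgeR 4.0.16 in R 4.3.3: filterByExpr, TMM factors and the robust quasi-likelihood test, two-sided, with Benjamini-Hochberg adjustment over all genes tested. An adjusted p under 0.05 was a call. Positive log2 fold changes mean higher on the elemental diet or in CD44+ cells. RPKM here is the TMM-scaled CPM divided by exon length. Ratios were tested within libraries by exact permutation on log2 CPM with a prior count of 2. Alternatives were DESeq2 1.42.0, limma 3.58.1 voom with quality weights, no filter, other read columns, 1 spread for all 4 groups, a replicate block, another prior count for the ratios and leaving out each library. Promoter letters and transcript stretches came from RefSeq and GENCODE tables of the same build. The fitting script was tested on simulated data.

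The members and the 17 other gene lists were chosen with earlier results of these data known. The genes named are all members, and the 3 most abundant tested genes of each other list that the text turns on. In marker lists genes were ranked whether or not they were tested. Also named are every called gene of pathway lists with at most 3 calls, and the 5 genes nearest in pattern. Some genes that fall under this rule are not reported here. Ratios and shares outside the 3 fixed ratios are marked as chosen after the values were seen. Libraries of a group differed by far more than counting noise, so none was treated as a duplicate. The labels give no sequencing batch. The number of libraries and, for the least abundant members, the number of reads limit the precision.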

Additional observations from a re-analysis of the deposited data

Results flagged for a closer look

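Of 52 group values checked, 3 had a library far from the rest of its group, and chance flags about 1 in 20 such groups. Cd74 in CD44- replicate 5 was 8855 CPM, with the next highest CD44- library at 3850 CPM. H2-Eb1 in CD44+ replicate 8 was 316 CPM, with the next highest CD44+ library at 145 CPM. The log2 ratio of H2-Ob to H2-DMa in CD44- replicate 1 was -2.69, with the next lowest CD44- library at -0.77.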

How the results depend on the processing

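For the diet, the count of members called was 1 under most alternatives, 2 with DESeq2 and 0 where all 4 groups shared the spread, and 1 in every fit that left out a library. The genes called in all numbered 2081 in the main fit, 4095 with limma-voom, 2 with a shared spread and 1299 (without conventional replicate 4) to 3865 (without conventional replicate 6) when leaving out a library. For CD44 the members called numbered 1, 3 with DESeq2, 2 with limma-voom, 2 with total gene reads, 7 with a shared spread and 0 to 1 when leaving out a library. All genes called there numbered 64, 401 with DESeq2, 101 with total gene reads, 1748 with a shared spread and 36 to 87 when leaving out a library. Leaving out a library gave -0.10 to 0.056 for the diet change of Cd74, which changed sign. For the log2 ratio differences it gave -0.48 to -0.27 for H2-Ob over H2-DMa and -0.61 to -0.44 for Cd74 over H2-Ab1 by diet. By CD44 it gave -0.30 to 0.17 for H2-Ob over H2-DMa, -0.96 to -0.60 for Cd74 over H2-Ab1 and -0.090 to 0.26 for H2-Ab1 over Cd79a. With total gene reads the diet difference of Cd74 over H2-Ab1 was -0.50, past the threshold no longer. The cause of these changes was not tested. Replicate numbers are shared by the groups, but same-numbered libraries did not deviate together (r from -0.14 to 0.27 by diet and -0.04 to 0.12 by CD44; closest to its own number in 1 of 6 and 1 of 7 pairs). With the replicate block the diet differences of Cd74 over H2-Ab1 (-0.50, adjusted p = 0.108, exact permutation test) and H2-Ab1 over Cd79a (1.18, adjusted p = 0.0625) were no longer called. For H2-Ab1 over Cd79a all 6 pairs went the same way, and the unadjusted p of 0.0312 was the smallest that 6 pairs can give, so that loss says nothing about stability. With the block 37 genes were called for CD44, no member's call changed, and the CD44 difference of H2-Oa was 1.21. The lowest exon read counts of a member in a library were 1 for Ciita and 2 for H2-Oa, both in CD44+ libraries, and counts that low leave those values imprecise.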

Other observations

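Ratios between the classical chains are given for the CD4+ and CD44 sets of libraries side by side; the sets differ in sorted population and kit, whose effects cannot be told apart. H2-Aa reads per H2-Ab1 read were 0.897 to 1.11 in elemental and 1.06 to 1.10 in conventional CD4+ libraries, and 9.20 to 21.9 in CD44+ and 7.74 to 17.8 in CD44- libraries. H2-Eb1 reads per H2-Ab1 read were 0.594 to 0.769 in elemental and 0.704 to 0.855 in conventional libraries, and 0.473 to 1.32 in CD44+ and 0.741 to 3.399 in CD44- libraries. The ranges of the first ratio did not overlap between the sets and those of the second did. These ratios were chosen after the values were seen and were not tested.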
